A study of Homo sapiens with 4 samples.

Results

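MT-ND4L and MT-ND4 are the genes of a bicistronic mitochondrial mRNA, in which 2 reading frames share 1 transcript and overlap. In the RefSeq mitochondrial gene table MT-ND4L runs from 10470 to 10766 and MT-ND4 from 10760 to 12137, both on the heavy-strand transcript. The deposited tables number this region 1 lower, so that the frames overlap from 10759 to 10765, and the tables' numbers are used from here on. All positions of the heavy-strand tables between the ends of these genes were taken. These are 2 of the 37 mitochondrial genes and 1668 of the 16500 positions in each heavy-strand table. The stretch held 497 A, 564 C, 172 G and 435 T, and all of it is coding sequence, between the tRNA genes MT-TR and MT-TH. Of its 1061 A and C, 1055 passed the limits on the mean mismatch fraction (at least 0.002 and at most 0.3 over the 4 libraries): 172 in MT-ND4L outside the overlap, 4 in the overlap and 879 in MT-ND4 outside it.

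The study probed RNA folding with dimethyl sulfate (DMS) in mitochondria isolated from HEK-293T cells, an established line from human embryonic kidney. The reagent methylates the base-pairing face of A and C that no partner protects, and the reverse transcriptase TGIRT-III reads a methylated base as a mismatch, so the mismatch fraction at A and C rises with accessibility. Mitochondria of wild-type cells (2 libraries) were compared with mitochondria of cells lacking LRPPRC (2 libraries), and the labels call the libraries of a group biological replicates. All 4 were treated in the same way, with 1% DMS for 5 min at 37 °C, and no library without DMS is used here. The labels do not say how the knockout was made or whether it is 1 clone. The tables hold mitochondrial positions alone, so the LRPPRC transcript itself, which is nuclear, was not measured here.

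MT-ND4L and MT-ND4 encode membrane-arm subunits of respiratory complex I, the proton-pumping NADH dehydrogenase. The start codon of MT-ND4 lies inside the end of the MT-ND4L frame, so ribosomes meet the downstream start before they finish the upstream protein. LRPPRC is a nuclear-encoded RNA-binding protein that, with SLIRP, stabilises mitochondrial mRNAs, keeps them open for translation and supports their polyadenylation. Human mitochondrial mRNAs have almost no leader, and several end in an incomplete stop codon that the poly(A) tail completes.

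The ends and the junction of the frames, read from the base column of the tables, show where the cistrons start, meet and stop. The first sequence runs from 10449 to 10508, with the MT-ND4L start codon in capitals and the end of MT-TR before it. The second runs from 10729 to 10795, with the overlap in capitals. The third runs from 12097 to 12156, with the last base of MT-ND4 in capitals and MT-TH after it.
MT-ND4L start: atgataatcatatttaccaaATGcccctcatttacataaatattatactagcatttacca
overlap: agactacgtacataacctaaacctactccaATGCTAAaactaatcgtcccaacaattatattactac
MT-ND4 end: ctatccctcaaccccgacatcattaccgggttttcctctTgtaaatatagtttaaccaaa
The overlap ATGCTAA holds the MT-ND4 start codon ATG and, in the other frame, the MT-ND4L stop codon TAA. The MT-ND4L frame ran for 99 codons to that TAA. The MT-ND4 frame ran for 459 codons without a stop and left 1 base, a T, before MT-TH.

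In wild-type mitochondria MT-ND4 was the most reactive of the 12 heavy-strand coding sequences, and in knockout mitochondria it was the least reactive. Its upstream partner MT-ND4L went from rank 11 to rank 10. Mean A and C mismatch in MT-ND4 outside the overlap was 3.86% and 3.84% in the wild-type libraries and 1.94% and 1.93% in the knockout libraries. In MT-ND4L outside the overlap it was 3.33% and 3.26% in wild type and 2.14% and 2.13% in knockout. All knockout values lay below all wild-type values in both cistrons, and the cistrons traded places: MT-ND4 was above MT-ND4L in both wild-type libraries and below it in both knockout libraries.

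**Figure D1:**
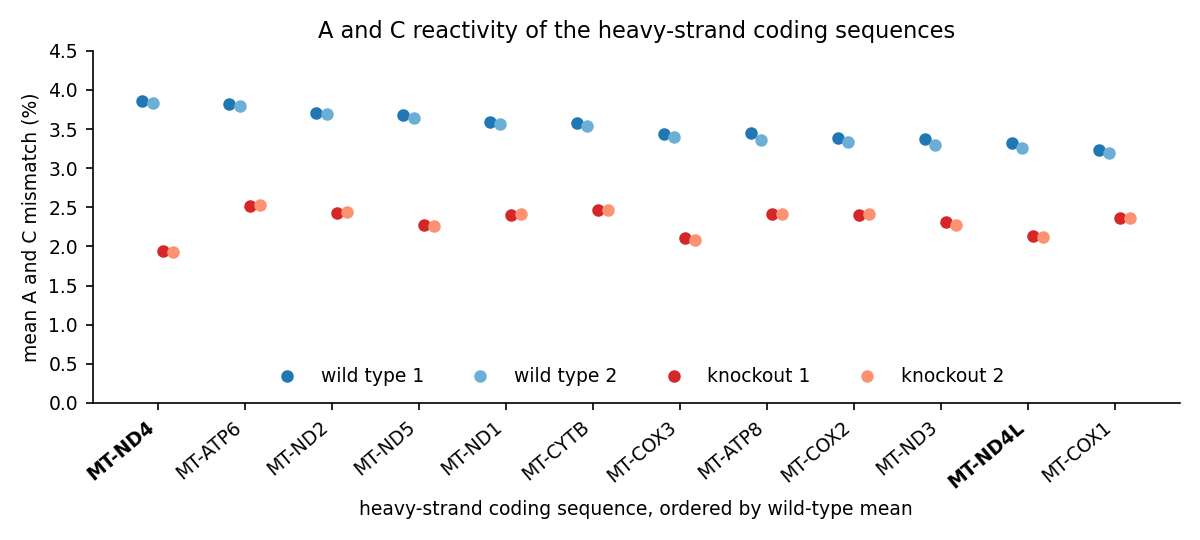
Mean A and C mismatch (percent, vertical axis) in each heavy-strand coding sequence, ordered by wild-type mean, with 1 point for each library; MT-ND4 and MT-ND4L are in bold. MT-ND4 is at the left end, with the highest wild-type and the lowest knockout points.

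As log2 of the mismatch fraction plus 0.001, the fall was 0.90 in MT-ND4 (SE 0.0102, adjusted p = 4.30e-07, limma over all genes with Benjamini-Hochberg adjustment, without centring). It was 0.50 in MT-ND4L (SE 0.0166, adjusted p = 1.25e-05). The MT-ND4 change was the largest fall among the 12 sequences, also at A alone and at C alone, and MT-COX3 (a log2 change of -0.63) and MT-ND5 (-0.62) came next. Of all 37 genes, 73.0% were called in that fit. The median of all tested heavy-strand positions was itself lower in the knockout libraries by a log2 change of -0.63, so both cistrons were also compared after each library was centred on its own median. On that scale MT-ND4 was lower in knockout by a change of -0.27 (SE 0.00937, adjusted p = 0.000175), whereas MT-ND4L was higher by 0.13 (SE 0.0147, adjusted p = 0.00262), with 83.8% of genes called. The direction for MT-ND4L thus depends on the scaling. Its positions had a median change of -0.49 without centring and 0.14 centred, near the medians of all tested heavy-strand positions (-0.50 and 0.13), whereas those of MT-ND4 had -0.87 and -0.24. The rank of MT-ND4 in wild type was narrow, since MT-ATP6 came next with 3.82% and 3.80%. In knockout the next lowest sequence, MT-COX3, was at 2.11% and 2.08%.

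The difference between the cistrons within a library needs no scaling between libraries. The mean log2 value of MT-ND4 minus that of MT-ND4L was 0.29 and 0.32 in the wild-type libraries and -0.10 and -0.10 in the knockout libraries, a change of -0.41. The groups did not overlap, and the exact two-sided permutation test gave p = 0.333, the smallest that 2 libraries against 2 allow. The cistrons differ a little in base composition, with 34.4% C in MT-ND4 and 31.4% in MT-ND4L, but the change was of like size at A alone (-0.36) and C alone (-0.44). The other bicistronic mRNA of this genome, MT-ATP8/MT-ATP6, encodes ATP synthase subunits. There MT-ATP6 minus MT-ATP8 was 0.17 and 0.21 in wild type and 0.12 and 0.12 in knockout, a change of -0.07.

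C was more reactive than A in both cistrons, and more so in wild type. In MT-ND4 the mean at C was 4.54% ± 0.0280 (SD, n = 2) in wild type and 2.07% ± 0.00229 in knockout. The mean at A in MT-ND4 was 3.06% ± 0.0125 and 1.79% ± 0.0183. In MT-ND4L the mean at C was 3.90% ± 0.0323 and 2.28% ± 9.32e-05, and at A 2.62% ± 0.0639 and 1.97% ± 0.0214. The log2 difference of C over A accordingly fell from 0.49 to 0.14 in MT-ND4 and from 0.44 to 0.17 in MT-ND4L.

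DMS under these conditions leaves G and T largely unmarked, so their mismatches serve as background, and they also rise where reads of the opposite strand are counted, because a G or T faces a DMS-reactive C or A there. In MT-ND4L this background was nearly level between groups. Its G mismatch was 0.368% and 0.325% in wild type and 0.358% and 0.382% in knockout, overlapping between groups, and its T mismatch was 0.890% and 0.838% against 0.804% and 0.794%. In MT-ND4 both rose: G was 0.493% and 0.452% in wild type and 0.770% and 0.818% in knockout, and T was 1.13% and 1.10% against 1.40% and 1.42% (exact permutation p = 0.333 for each). The A and C of MT-ND4 therefore fell while its G and T went up, and the groups did not overlap at any of the 4 bases.

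The light-strand tables allow a measure of opposite-strand reads, the regression slope of heavy-strand G and T on the light-strand A and C they face. In MT-ND4 this slope was 17.6% and 14.9% in wild type and 29.5% and 29.9% in knockout. In MT-ND4L it went the other way, with 19.8% and 17.0% in wild type and 10.5% and 11.2% in knockout. The light-strand A and C themselves rose, from 1.27% ± 0.0407 to 2.09% ± 0.00668 opposite MT-ND4L and from 1.77% ± 0.0187 to 2.47% ± 0.00625 opposite MT-ND4. A slope is therefore not by itself the size of the opposite-strand part of the heavy-strand signal. When the fractions were corrected by each gene's own slope, the log2 fall was 0.65 in MT-ND4 (adjusted p = 0.000272, limma, without centring) and 0.50 in MT-ND4L (adjusted p = 0.00174). Corrected and centred, the change was -0.07 in MT-ND4 (adjusted p = 0.0314) in place of -0.27, and that of MT-ND4L, 0.08, was no longer called (adjusted p = 0.0759). The change in MT-ND4 minus MT-ND4L was then -0.15 in place of -0.41. MT-ND4 kept the largest corrected fall of the 12 sequences, with MT-ATP8 next to it at a change of -0.65. How much of the gap between the cistrons belongs to opposite-strand reads was not tested beyond these values.

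The fall deepened along the transcript. In 4 segments of MT-ND4 of equal length (a split chosen after the data were seen), mean A and C mismatch in wild type stayed between 3.63% and 4.02%. In knockout it was 2.37% ± 0.00320 (SD, n = 2), 1.87% ± 0.0118, 1.86% ± 0.00399 and 1.62% ± 0.0272 from the first segment to the last. The log2 changes were -0.68, -0.79, -0.99 and -1.15. The G and T background moved with them, with log2 changes of -0.07, 0.54, 0.45 and 0.75 in the same order. In the last segment it reached 1.55% in knockout, near the A and C mean of 1.62%. Corrected with each segment's own slope, the changes were -0.62, -0.69, -0.52 and -0.76, so the last segment still fell furthest while the steady order was gone. Those slopes were uneven. In the first segment they were 8.59% and 6.39% in wild type and 11.6% and 11.2% in knockout. In the second they fell, from 51.8% and 46.4% to 30.9% and 31.4%, while its G and T background rose. The light-strand A and C of that segment rose too, from 1.27% ± 0.0366 in wild type to 2.28% ± 0.00683 in knockout. In the last they rose from 16.8% and 23.9% to 43.1% and 45.9%.

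**Figure D2:**
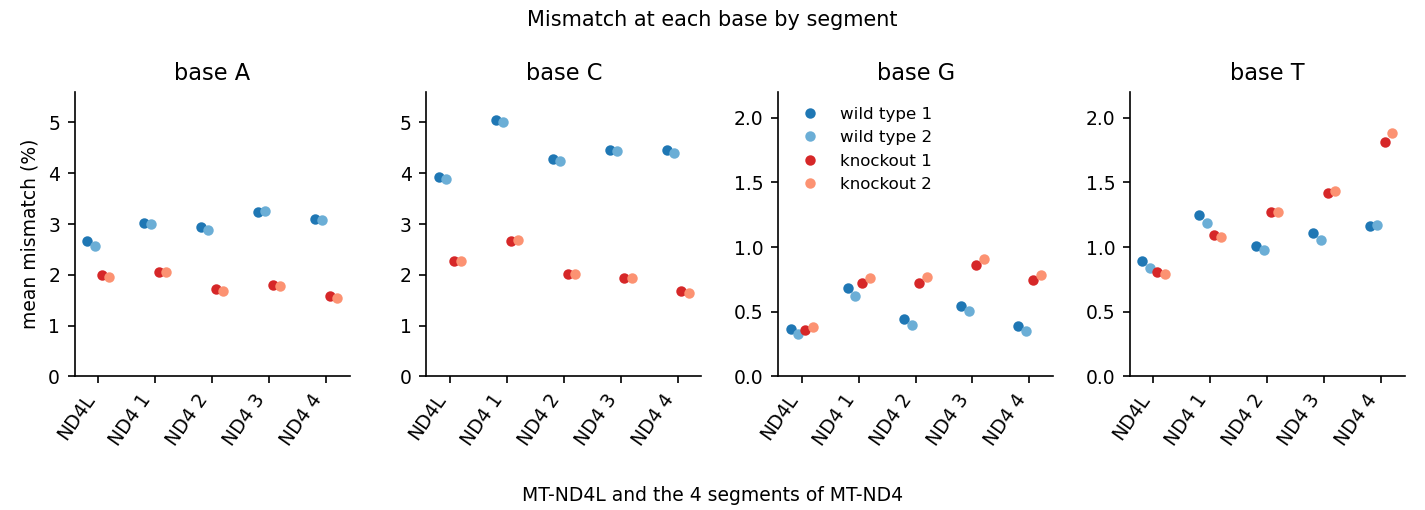
Mean mismatch (percent, vertical axis) at A, C, G and T in MT-ND4L and in the 4 segments of MT-ND4, with 1 point for each library; the G and T panels have a finer scale. In knockout A and C are lower, and T higher, in the last segment of MT-ND4 than in the first.

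Over the whole mRNA, the slope of the base-centred log2 values on position was 0.01 per 100 nt in both wild-type libraries and -0.03 per 100 nt in both knockout libraries, a change of -0.045 per 100 nt (exact permutation p = 0.333). With slope-corrected fractions the change was -0.033. Of the 8 other heavy-strand coding sequences longer than 500 nt, none had a change this far below 0. MT-ND5 (-0.037), MT-ATP6 (-0.033) and MT-CYTB (-0.030) were nearest, and MT-COX2 had a change of 0.034. Within MT-ND4L the trend was the reverse, since the change was 0.18 per 100 nt and the knockout values rose towards the overlap.

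In 50-nt windows, 31 of the 32 windows inside the mRNA were lower in knockout without centring (limma, adjusted p under 0.05), against 92.4% of all heavy-strand windows called. Centred, 28 of 32 were called, 6 higher and 22 lower, against 87.9% of all windows. Both shares count windows called in either direction, and no share by direction was taken over all windows. The lowest wild-type windows were 10651 to 10700 (2.10% ± 0.0387), 11401 to 11450 (2.46% ± 0.0464) and 11351 to 11400 (3.18% ± 0.0450). The highest wild-type windows were 12051 to 12100 (4.36%), 11751 to 11800 (4.29%) and 11251 to 11300 (4.28%), all in MT-ND4. The largest fall was at 12051 to 12100, from 4.36% and 4.37% to 1.52% and 1.42% (log2 change -1.43, SE 0.0296, adjusted p = 1.83e-08). Next came 11801 to 11850, from 4.06% and 4.01% to 1.47% and 1.50% (-1.36, SE 0.0157, adjusted p = 3.73e-09). Both lie in the last segment of MT-ND4, where the mean predicted unpaired probability was 0.68. In knockout their G and T background was 1.83% and 1.45%, beside A and C means of 1.47% and 1.48%.

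**Figure D3:**
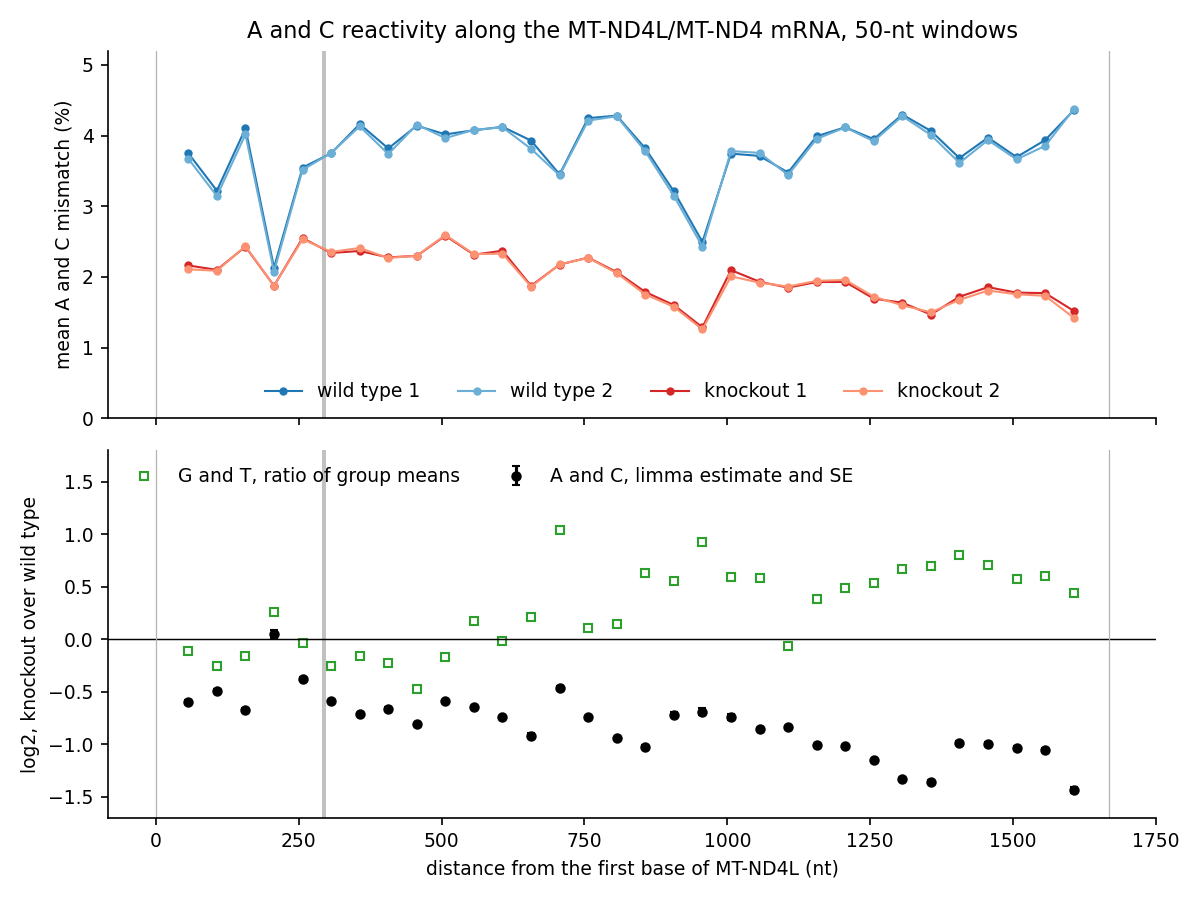
Top, mean A and C mismatch (percent) in 50-nt windows of each library against distance from the first base of MT-ND4L; bottom, log2 of knockout over wild type for A and C (filled, limma estimate without centring, with SE) and for G and T (open squares, ratio of group means). The grey band is the overlap and the thin lines are the ends of the mRNA; 1 window in MT-ND4L sits at 0 and the A and C points fall towards the right.

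The exception was the window 10651 to 10700 of MT-ND4L. It held 2.13% and 2.08% in wild type and 1.87% in each knockout library, a log2 change of 0.05 (SE 0.0376, adjusted p = 0.248). Its mean predicted unpaired probability, 0.352, is the lowest of the 32 windows, and its minimum free energy fold has 12 base pairs at -16.1 kcal/mol, the lowest energy among the 8 windows named here. Its sequence, and that of the window 11351 to 11400 in MT-ND4, are shown with the bases of the predicted pairs in capitals.
10651 to 10700: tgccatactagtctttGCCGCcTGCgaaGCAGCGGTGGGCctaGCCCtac
11351 to 11400: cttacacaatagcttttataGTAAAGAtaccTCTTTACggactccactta
In the MT-ND4L window, the 11 tested A and C in predicted pairs were at 1.08% ± 0.00971 in wild type and 1.14% ± 0.0177 in knockout, and the 14 unpaired ones fell from 2.91% ± 0.0614 to 2.45% ± 0.0136. In the MT-ND4 window, the 7 paired A and C went from 1.72% ± 0.00879 to 1.16% ± 0.00202 and the 21 unpaired ones from 3.66% ± 0.0570 to 1.73% ± 0.0226. These means carry no test of their own. The fold of 11401 to 11450 had 12 pairs at -9.1 kcal/mol, and there the unpaired A and C went from 3.09% to 1.33% and the paired ones from 1.42% to 1.17%.

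The window with the largest fall has a weak predicted fold, of 8 pairs at -3.2 kcal/mol, and is rich in A and C. It is shown with its pairs in capitals.
12051 to 12100: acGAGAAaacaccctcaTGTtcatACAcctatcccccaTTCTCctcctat
There the 26 unpaired A and C fell from 4.59% ± 0.00560 to 1.48% ± 0.0679, and the 8 paired ones from 3.64% ± 0.0253 to 1.44% ± 0.0708. Paired and unpaired bases of this window were at nearly the same level in knockout. The G and T background of the window was 1.35% in wild type and 1.83% in knockout. The knockout A and C, paired or unpaired, thus stood below that background, and its part in the lost contrast was not tested.

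Reactivity followed the pairing predicted from sequence alone more closely in MT-ND4L than in any other heavy-strand coding sequence. Spearman's rho between mismatch fraction and RNAplfold's unpaired probability over its 172 tested positions was 0.655 and 0.653 in wild type and 0.593 and 0.589 in knockout. In MT-ND4, over 879 positions, rho was 0.321 and 0.319 in wild type and 0.455 and 0.452 in knockout. That rise was the largest among the 12 sequences, from rank 9 to rank 4, while rho of MT-ND4L fell. These values describe positions that share a library and a sequence, and they carry no p. With the narrower folding window of 120 nt, rho of MT-ND4 went from 0.320 to 0.414 and that of MT-ND4L from 0.624 to 0.589.

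With the wider folding window the gain in MT-ND4 was largest in its last segment, where rho went from 0.249 and 0.248 to 0.536 and 0.544. In the first segment, which has only 3 positions predicted to be paired, rho was 0.270 and 0.259 in wild type and 0.166 and 0.149 in knockout. The place of the last segment depends on the folding window. With the 120-nt window the gain was of like size in the second and last segments. In the second segment rho then went from 0.536 and 0.537 to 0.638 and 0.634. In the last segment it went from 0.263 and 0.264 to 0.355 and 0.369.

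Positions predicted to be paired (unpaired probability under 0.2) behaved differently in the 2 cistrons. In MT-ND4L the 25 such A and C were at 1.26% and 1.23% in wild type and 1.11% and 1.09% in knockout, while the 85 predicted to be unpaired (over 0.8) went from 4.32% and 4.24% to 2.61% and 2.60%. In segments 1 and 2 of MT-ND4 the 35 predicted-paired positions were at 1.35% and 1.34% and then 0.973% and 0.965%. In segments 3 and 4 the 27 predicted-paired positions stood at 3.31% and 3.33% in wild type, against 4.16% and 4.13% for the unpaired ones, and at 1.27% and 1.24% in knockout. The log2 gap of unpaired over paired thus narrowed in MT-ND4L, from 1.90 to 1.17, and in segments 1 and 2 of MT-ND4, from 1.76 to 1.22. In segments 3 and 4 it widened, from 0.55 to 0.79. At A alone that gap went from 0.45 to 0.97 and at C alone from 0.63 to 0.66, and with the 120-nt folding window it went from 0.77 to 0.92. With that window it widened at A, from 0.25 to 1.01 over 5 paired positions, and narrowed at C, from 1.13 to 0.89 over 10, so the direction in segments 3 and 4 depends on the base and the folding window. The paired positions of that window were at 2.70% in wild type.

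**Figure D4:**
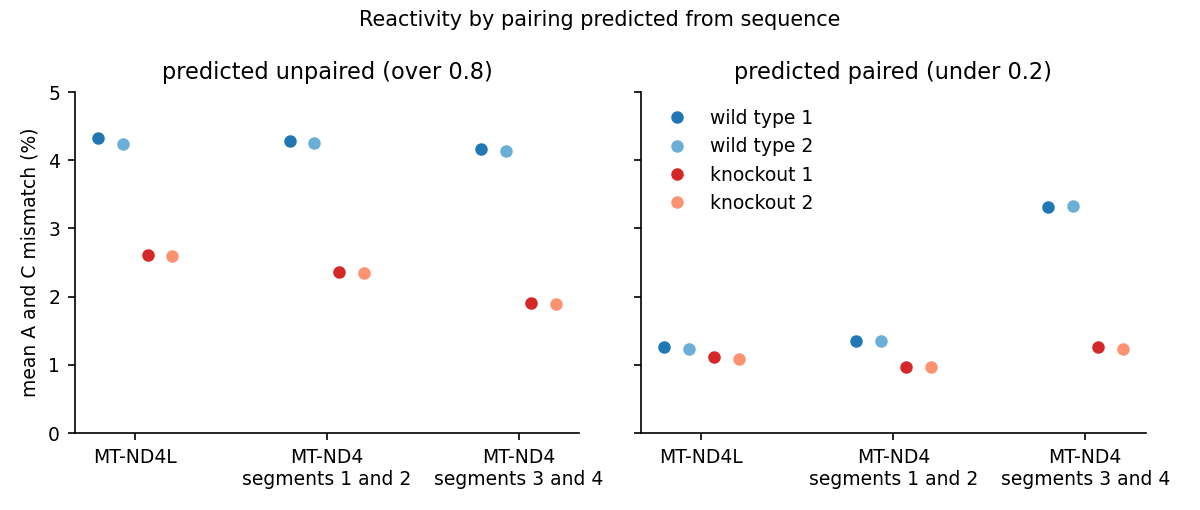
Mean A and C mismatch (percent, vertical axis) at positions predicted from sequence to be unpaired (left) or paired (right), in MT-ND4L and in segments 1 and 2 and segments 3 and 4 of MT-ND4, with 1 point for each library. The predicted-paired points of segments 3 and 4 lie above 3% in wild type, and those of MT-ND4L and of segments 1 and 2 below 1.4%.

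The least reactive positions also fell less than the most reactive ones. Sorting on wild type can give this order by itself where the profiles of the groups are not fully correlated. Whether the fall depends on the starting level was not tested. Positions were sorted into 4 groups of equal size by the first wild-type library, and the change was taken from the second wild-type library to the knockout mean. The least reactive C positions of MT-ND4L went from 1.19% to 1.04% (log2 change -0.05), and its most reactive ones from 6.65% to 3.50% (-0.90). The least reactive C positions of MT-ND4 went from 2.08% to 1.21% (-0.67), and its most reactive ones from 6.97% to 2.86% (-1.30). At A the least and the most reactive groups went from 1.11% to 1.10% and from 4.20% to 3.11% in MT-ND4L (a change of -0.44 in the latter), and by changes of -0.40 and -0.91 in MT-ND4.

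The spread of reactivity within a cistron, given as the Gini index of its A and C fractions, fell in both. It was 0.315 and 0.320 in wild type and 0.259 and 0.262 in knockout for MT-ND4L (adjusted p = 0.00851, limma), and 0.257 and 0.259 against 0.228 and 0.235 for MT-ND4 (adjusted p = 0.0196), with 45.9% of genes called. MT-ND4L had the most uneven profile of the 12 sequences in wild type. In knockout its mean was level with that of MT-COX2 (0.260 for each). In MT-ND4 the Gini index at C alone was higher in knockout by 0.012 (adjusted p = 0.0432), and the change missed the threshold at A alone (-0.015, adjusted p = 0.121) and with slope correction (-0.012, adjusted p = 0.0965). At A alone the MT-ND4L fall missed it too (-0.017, adjusted p = 0.0549).

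Single positions followed the cistron they lie in. Without centring, 151 of 172 tested positions of MT-ND4L were called, 14 higher and 137 lower, and 839 of 879 in MT-ND4, 19 higher and 820 lower. Over all tested heavy-strand positions 83.0% were called in that fit, 4.73% as higher and 78.3% as lower. Centred, 132 positions of MT-ND4L were called, 88 higher and 44 lower, and 688 of MT-ND4, 165 higher and 523 lower, against 71.5% of all positions called, 44.9% higher and 26.6% lower. Groups did not overlap at 165 positions of MT-ND4L and 867 of MT-ND4 without centring (92.1% of all positions) and at 154 and 799 centred (87.2%). MT-ND4 thus had a share of centred falls, 59.5%, above the background, and MT-ND4L, with 25.6%, was near it. By segment of MT-ND4 the share of centred falls was 37.3%, 55.7%, 68.8% and 77.6%. With slope-corrected, centred fractions, MT-ND4 had 279 positions called higher and 342 called lower. No share over all positions was taken with that correction, so these counts cannot be set against a background.

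The most reactive base of the mRNA in wild type was C11043 in MT-ND4, in the third position of codon 95. It held 17.6% and 17.5% in wild type and 3.44% and 3.61% in knockout (log2 change without centring -2.29, SE 0.0363, adjusted p = 1.32e-05, limma). C11475 in codon 239 held 16.7% and 16.8% and then 7.36% and 7.25%, although its predicted unpaired probability was only 0.170. C12078 in codon 440 held 14.5% and 15.1% and then 2.69% and 2.42%. In MT-ND4L the most reactive bases were C10539 (13.1% and 13.2%, then 3.50% and 3.47%), C10620 (8.65% and 8.25%, then 2.80% and 2.84%) and C10541 (8.00% and 7.82%, then 3.24% and 3.23%). All of these but C11475 were predicted to be open, with unpaired probabilities of 0.975 or more, and all fell with no overlap between groups. The most reactive bases and their surroundings of 10 nt on either side are shown with the measured base in capitals.
C10539: gtatatcgctCacacctcata
C11043: aaaaactctaCctctctatac
C11475: taaaactaggCggctatggta
C12078: tgttcatacaCctatccccca

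The largest falls in MT-ND4 relative to the library median were at C11634, from 5.86% and 5.90% to 0.770% and 0.863% (centred log2 change -2.08, SE 0.0597, adjusted p = 0.000130), C11902, from 4.84% and 5.17% to 0.805% and 0.707% (-1.95), and A11547, from 11.7% and 12.2% to 1.95% and 1.89% (-1.95). C11634 and C11902 have predicted unpaired probabilities of 0.115 and 0.155, so sites that the sequence-based model pairs were reactive in wild type and read under 1% in knockout. In MT-ND4L the largest falls were at C10472 (3.77% and 4.29%, then 0.997% and 1.00%; -1.28), C10539 (-1.25) and C10473 (2.04% and 2.02%, then 0.503% and 0.525%; -1.16). C10472 and C10473 are the first bases of codon 2, directly after the MT-ND4L start codon printed above.
C11634: cttcaatcagCcacatagccc
C11902: actctctgtgCtagtaaccac

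Positions that rose without centring made up 8.14% of the tested positions of MT-ND4L and 2.16% of those of MT-ND4, against 4.73% of all positions. The 14 such positions of MT-ND4L had wild-type levels from 0.258% to 1.98%, with a median of 0.633% against 3.12% over its tested positions. All 14 had a predicted unpaired probability under 0.5, as did 58 of its 172 tested positions, and 7 of them lay in the window 10651 to 10700. The largest centred rises were at C10669 (0.263% and 0.252%, then 0.570% and 0.610%; log2 change 1.58, adjusted p = 0.000461), A10660 (0.507% and 0.481%, then 0.921% and 0.912%; 1.41) and C10690 (0.344% and 0.330%, then 0.621% and 0.659%; 1.39). C10669 and C10690 are predicted to be paired in the window fold printed above. The G and T background of that window was 0.422% in wild type and 0.507% in knockout, close to the levels of these bases, and its part in their rise was not tested.

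The 19 rises in MT-ND4 had wild-type levels from 0.155% to 4.06%, with a median of 1.04% against 3.6% over its tested positions, and 10 of them had a predicted unpaired probability under 0.5, as did 159 of its 879 tested positions. The most reactive of them in wild type was C11969, with 4.13% and 3.99% and then 5.52% and 5.39% (picked after its values were seen). Of the 19, 6 lay between 11351 and 11400, in or beside the predicted hairpin of that window. The largest centred rise was at C11388, its last paired base, from 1.19% in each wild-type library to 2.12% and 2.30% in knockout (log2 change 1.47, SE 0.0617, adjusted p = 0.000206). C11380 and C11381 in the predicted loop also rose, from 2.91% and 2.84% to 3.48% and 3.13% and from 1.28% and 1.24% to 1.88% and 1.86% (these 2 were picked after their values were seen). The window as a whole nevertheless fell, by a log2 change of -0.72, and its G and T background went from 0.660% to 0.969%. The next centred rises in MT-ND4 were at C11918 (0.156% and 0.155%, then 0.345% and 0.338%) and C11916 (0.884% and 0.859%, then 1.40% and 1.55%).

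At the junction the mean of the overlap, over 3 A and 1 C, was lower than that of the stretches on either side in both groups. The 60 nt before the overlap had a mean A and C mismatch of 3.47% ± 0.0186 in wild type and 2.43% ± 0.00900 in knockout, and the 60 nt after it 3.90% ± 0.0179 and 2.40% ± 0.0259. The overlap, with 4 tested positions, had 3.15% ± 0.0316 and 1.85% ± 0.0316. That mean leans to A, the less reactive base. At A the overlap held 2.49% in wild type and 1.60% in knockout, below the A means of both cistrons. At C it held 5.13% and 2.62%, above their C means. The stretch after the overlap was above the stretch before it in both wild-type libraries, by more than the spread between them, and in knockout the values lay close together (2.44% and 2.43% before, 2.38% and 2.42% after). A10759, the first base of the MT-ND4 start codon, held 3.19% and 3.30% and then 2.02% and 1.93%. C10762 held 5.11% and 5.16% and then 2.62% in each knockout library, A10764 held 2.25% and 2.19% and then 1.46% and 1.40%, and A10765 held 1.97% and 2.04% and then 1.41% and 1.38%. All 4 fell without centring, and C10762 alone was called after centring (log2 change -0.31, adjusted p = 0.000548). The first base of the MT-ND4 start codon, its only A or C, was therefore more reactive than that of MT-ND4L. The latter, A10469, held 0.477% and 0.321% in wild type and 0.714% and 0.575% in knockout (centred log2 change 1.22, adjusted p = 0.00537). It directly follows MT-TR, and its wild-type libraries spread widely for so low a level (0.399% ± 0.110). Without centring its call was narrow (adjusted p = 0.0445, limma). Near the other end C12134, in the last full codon of MT-ND4, held 0.379% and 0.475% and then 0.498% and 0.546%, a change of 0.24 without centring that missed the threshold (adjusted p = 0.160). The last 50 nt of MT-ND4 as a whole fell from 3.26% ± 0.0296 to 1.23% ± 0.0459.

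**Figure D5:**
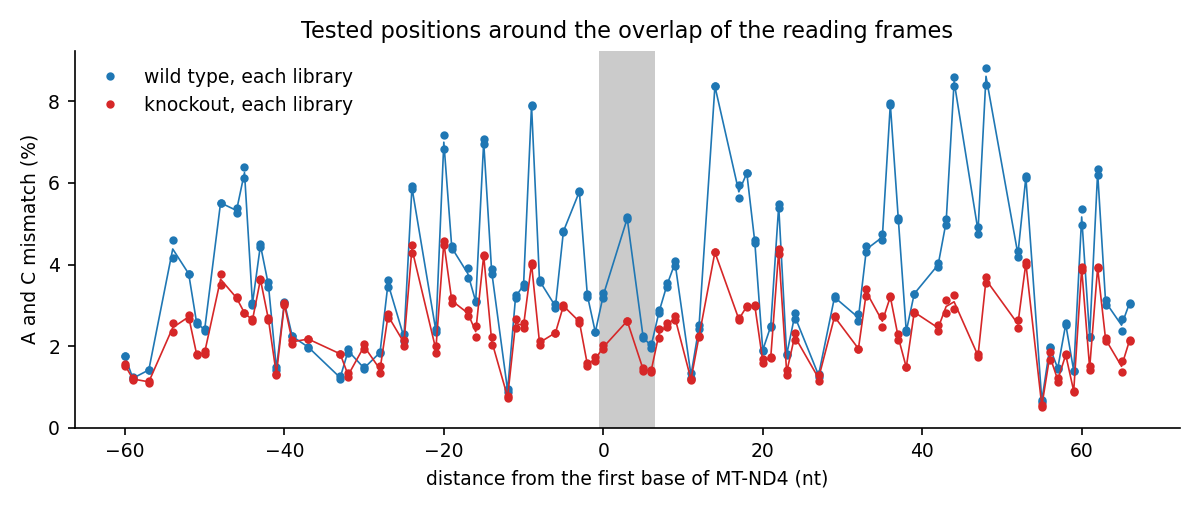
A and C mismatch (percent, vertical axis) at each tested position within 60 nt of the overlap, against distance from the first base of MT-ND4, with each library as a point and lines through the group means. The grey band is the overlap; the knockout points lie below the wild-type points at most positions on both sides of it.

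The tRNA genes that flank the mRNA were far less reactive. MT-TR averaged 0.696% ± 0.0789 at A and C in wild type and 0.746% ± 0.0919 in knockout, and MT-TH 0.927% ± 0.000520 and 0.713% ± 0.0499. The A and C mean of MT-ND4L was thus more than 4 times that of MT-TR in wild type, across adjacent genes of the same precursor. In knockout the A and C means of both tRNA genes lay below their G and T means, 0.821% ± 0.0618 in MT-TR and 1.55% ± 0.0287 in MT-TH.

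Levels by codon position were closer together in MT-ND4 than in MT-ND4L. At C in MT-ND4 the wild-type means were 4.24% ± 0.0285, 4.66% ± 0.0200 and 4.67% ± 0.0329 at codon positions 1, 2 and 3, and the log2 changes were -1.05, -1.05 and -1.07. At C in MT-ND4L they were 3.34% ± 0.00358, 4.60% ± 0.0293 and 3.90% ± 0.0561, with changes of -0.57, -0.73 and -0.58, so codon position 2 was the most reactive and changed most. At A the wild-type means were 3.16%, 2.88% and 3.05% in MT-ND4 and 2.62%, 2.90% and 2.48% in MT-ND4L, with changes of -0.70, -0.66 and -0.74 and of -0.40, -0.38 and -0.30. These values are given without a test.

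Among the 7 mitochondrial mRNAs of complex I subunits, all were lower in knockout without centring (median log2 change -0.50, against -0.27 over all 37 genes, of which 24 were lower and 3 higher). Centred, MT-ND1, MT-ND2, MT-ND3 and MT-ND4L were higher and MT-ND4 and MT-ND6 were lower (median 0.11, against 0.16 over all genes, of which 22 were higher and 9 lower). Light-strand genes, MT-ND6 among them, were centred on the median of the tested light-strand positions. Their centred changes are therefore not on the scale of the heavy-strand genes, and the centred counts over all genes mix both scales. Without centring MT-ND6 changed by -0.07, against -0.61 centred. MT-ND5, the remaining member, had a centred change of 0.01 that was not called (adjusted p = 0.539). The Gini index was called lower in all 7, and in 14 of all 37 genes. It was also called lower in MT-COX1, MT-COX2, MT-COX3, MT-ATP6, MT-ATP8 and MT-CYTB, so this was not particular to complex I.

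Replicates agreed closely, so the differences above are large against the spread between libraries. Across positions of MT-ND4L the correlation of log2 values was 0.998 between the wild-type libraries and 0.994 between the knockout libraries, and between groups 0.867 to 0.873. In MT-ND4 it was 0.997 and 0.987, and between groups 0.744 to 0.753. These correlations run across positions, which are not independent replicates.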

How the data were processed

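The deposited tables, 8 in all, give for each library and strand the mismatch fraction per position, per the file headers. cutadapt and Bowtie2 are named in the submitters' processing notes. Their versions and settings, the genome build and the read depth are not given in the sources used here, so no counting interval could be computed. Positions are those of the files, 1 below the RefSeq mitochondrial gene table in this region, and gene names come from that table.

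A and C positions with a mean fraction from 0.002 to 0.3 were tested as log2(fraction + 0.001), with and without centring each library on its median. That median was taken within each strand. Of the A and C in the mRNA, 5 lay below the lower limit and 1 above the upper one, as did 1 G. limma 3.58.1 (R 4.3.3) was fitted over all 9910 tested heavy-strand positions, over all windows of 50 nt that held 8 or more tested positions, and over all 37 genes, each on its own strand and each counting the overlap in full. Calls were made at a Benjamini-Hochberg adjusted p of 0.05, two-sided. The fits were tested on simulated data. Differences between the cistrons within a library used the exact permutation test. Pairing was predicted from sequence with RNAplfold 2.7.2 (window 240 nt, span 160 nt) and, for single windows, RNAfold. The regression slope used each base centred on its own mean, and corrected fractions subtract that share of the opposite strand's fraction.

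Same-numbered libraries did not deviate together (correlation 0.000704 over all positions, 0.205 in MT-ND4L and -0.0025 in MT-ND4), and the labels tie no numbers together, so no pairing was used. p-values measure the spread between these libraries. Named positions are, in each cistron, the 3 highest in wild type and the 3 largest centred rises and falls among calls, and those of the overlap and of the start and stop codons. Named windows are the 3 highest and 3 lowest in wild type, with the 2 largest rises and falls. The members and lists were chosen with earlier results of these data known. The 4 segments, the trend, the level sorting, the paired and unpaired split and the window folds were added after the data were seen.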

Additional observations from a re-analysis of the deposited data

How the results depend on the processing

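The fall of MT-ND4 and its call held under every alternative run, from -0.07 with slope-corrected, centred fractions to -0.90 without centring. The MT-ND4L change turned to -0.50 without centring and to -0.50 with slope correction and no centring, and missed the threshold with fractions of at least 0.01 (0.026) or slope correction (0.077). The Gini change of MT-ND4 turned to 0.012 at C alone and missed the threshold at A alone (-0.015) and with slope correction (-0.012); that of MT-ND4L missed it at A alone (-0.017). Without each library in turn the Gini changes ran from -0.060 to -0.055 in MT-ND4L, where 3 of the 4 fits missed the threshold, and from -0.030 to -0.024 in MT-ND4, where all 4 did, in fits with fewer samples. In fits of 1 base alone, called positions of MT-ND4L numbered 52 of 81 at A and 72 of 91 at C. Those of MT-ND4 numbered 277 of 409 and 394 of 470. Within 60 nt of the overlap 67 of 86 were called, against 71.5% of all positions, with 26 of 49 at A and 32 of 37 at C. All 16 of the 100-nt windows were called. No share over all positions or windows was taken for A alone, C alone or 100-nt windows. The rho change of MT-ND4 was 0.13, and 0.0926 with the 120-nt folding window, 0.179 at A, 0.125 at C and 0.111 with slope correction; that of MT-ND4L was -0.063, and -0.036, -0.078, -0.070 and -0.072. The change in MT-ND4 minus MT-ND4L ran from -0.42 to -0.15, the latter with slope correction. A replicate block cannot move a change between groups in this balanced design. The changes of MT-ND4L (0.13), MT-ND4 (-0.27) and MT-ND4 minus MT-ND4L (-0.41) were therefore fixed under it. It could alter calls, and it moved no count of calls by 1.5 times. Of 323 comparisons with the main values, 279 were counted as the same. For changes this means the same direction and side of the threshold, for counts a move within 1.5 times, and for rho a move within the SD between libraries. Some could not differ: the exact test cannot pass the threshold, a replicate block cannot move a change, and centring cannot move a difference within a library. Depth is unknown, and with 2 libraries a group no exact test could pass the threshold.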
